A study of Mus musculus with 8 samples.

Results

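Expression of 40 cell cycle genes was followed in conventional dendritic cells (cDC) sorted from mouse spleen. The genes are a named list of S-phase and mitosis genes, taken by symbol from the 55487 genes of the deposited tables, and all 40 were found and tested. They were read as regulators of the step from G1 into S phase (6 genes), factors of DNA replication (11), enzymes of nucleotide supply (3), regulators of mitosis (13), and proteins of chromosomes and the spindle (7). The 8 RNA-seq libraries came from untreated C57BL/6 mice and formed 4 groups of 2. The groups were Zeb2 -165(d1+2+3) mutant cDC1, wild-type (WT) cDC1, Irf8 +32-/- mutant cDC2, and WT cDC2. Both mutant genotypes are named for enhancers rather than for coding changes, and each was profiled in 1 cell type only. No label or protocol used here states the age of the mice, the sort gates or the animals behind a library, so p-values measure the spread between libraries, which may be technical.

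Conventional dendritic cells are antigen-presenting cells. The cDC1 subset is known for presenting antigen to CD8 T cells and the cDC2 subset for presenting it to CD4 T cells. Both descend from dividing precursors in the bone marrow, and some cells still divide after they reach the spleen. In a dividing cell, cyclin D with CDK4 or CDK6 and then cyclin E with CDK2 phosphorylate the pocket proteins of the Rb family, which frees E2F factors to activate S-phase genes. The MCM helicase is loaded onto origins by Cdc6 and Cdt1 and is switched on by Cdc45 and the GINS complex. Later, Foxm1 and Mybl2 together with the MuvB complex, which binds promoters at a motif named the cell cycle homology region (CHR), activate mitotic genes, and Cdk1 with cyclin B starts mitosis. In bulk libraries, fewer dividing cells and less of an RNA per cell cannot be told apart.

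The libraries held 49380686 to 58611821 counts, and the cell cycle genes took 0.247% to 0.295% of the counts of tested genes. No member was at 0 in any library, and the lowest count of any member was 210. All 8 cDC1 marker genes were higher and all 10 cDC2 marker genes were lower in the cDC1 libraries than in the cDC2 libraries by edgeR's quasi-likelihood test. Zeb2 stood at 2.24 and 3.54 CPM (counts scaled to library size) in Zeb2 mutant cDC1, against 2.09 and 2.10 CPM in WT cDC1. Irf8 stood at 147 and 120.0 CPM in Irf8 mutant cDC2, against 126 and 104 CPM in WT cDC2. Neither difference was called (edgeR adjusted p = 0.477 for Zeb2 and 0.914 for Irf8), so the genotype of a library could not be checked from these levels. Replicates differed by transcript length to unequal extents. Over 8399 genes the difference of replicate 2 minus replicate 3 had a Spearman correlation with exon length of 0.241 in Zeb2 mutant cDC1, -0.391 in WT cDC1, 0.142 in Irf8 mutant cDC2 and -5.98e-06 in WT cDC2, and results that turn on WT cDC1 are given with and without its libraries.

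Levels below are CPM scaled by TMM, given as replicate 2 and then replicate 3 of a group, and levels are set side by side between genes only per kilobase of exon. Averaged over the 8 libraries, the highest cell cycle genes were Pcna, the clamp of the replication fork, at 60.1 CPM per kilobase, the helicase subunits Mcm6 and Mcm3 at 46.8 and 44.3 CPM per kilobase, and Mcm4 at 39.4 CPM per kilobase. The lowest were Gins2, Cenpf and Ccne2 at 2.15, 2.45 and 2.67 CPM per kilobase. In each role class the order was led by Uhrf1 and E2f1 (21.5 and 11.5 CPM per kilobase), Pcna and Mcm6, Rrm2 and Rrm1 (38.4 and 12.3), Ccnb2 and Cdc20 (34.8 and 19.2), and Top2a and Mki67 (22.4 and 13.2). The lowest genes of these classes were Ccne2, Gins2, Tyms (4.64 CPM per kilobase), Cdk1 (6.06) and Cenpf. Exon length here counts all annotated exons of a gene (6089 bases for Tyms and 11012 for Rrm1), so the order depends on annotation too. Of the Gins2 exon bases, 67.3% are shared with Gse1 on the other strand. The members varied little between libraries. The highest library was a median of 1.56 times the lowest, against 1.87 times for the 7799 genes in the same range of mean CPM. In 10 members this ratio was over 2, and it was 4.27 for E2f2.

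The summed level of the members was close in the 4 groups. It was 2797 and 2435 CPM in Zeb2 mutant cDC1 and 2503 and 2762 CPM in WT cDC1, against 2821 and 2946 CPM in Irf8 mutant cDC2 and 2656 and 2716 CPM in WT cDC2. The cDC1 and cDC2 libraries overlapped in this sum. The summed CPM of the G1/S regulators separated them, but its genes did not move together. The sum was 183 and 155 CPM in Zeb2 mutant cDC1 and 165 and 201 CPM in WT cDC1, against 205 and 206 CPM in Irf8 mutant cDC2 and 219 and 221 CPM in WT cDC2, so every cDC1 library was below every cDC2 library. Summed per kilobase of exon, the same genes overlapped, at 48.5 and 40.8 in Zeb2 mutant cDC1 and 43.6 and 52.5 in WT cDC1, against 50.5 and 50.9 in Irf8 mutant cDC2 and 53.4 and 53.9 CPM per kilobase in WT cDC2. Their median log2 fold change of cDC1 over cDC2 went the other way, at 0.31 (0.22 to 0.39 over the alternatives). For the 7 chromosome and spindle genes the sum was 613 and 495 CPM in Zeb2 mutant cDC1 and 372 and 478 CPM in WT cDC1, against 685 and 732 CPM in Irf8 mutant cDC2 and 584 and 635 CPM in WT cDC2. Replicate 2 of Zeb2 mutant cDC1 reached into the WT cDC2 range there, while the other 3 cDC1 libraries stood below all cDC2 libraries.

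**Figure D1:**
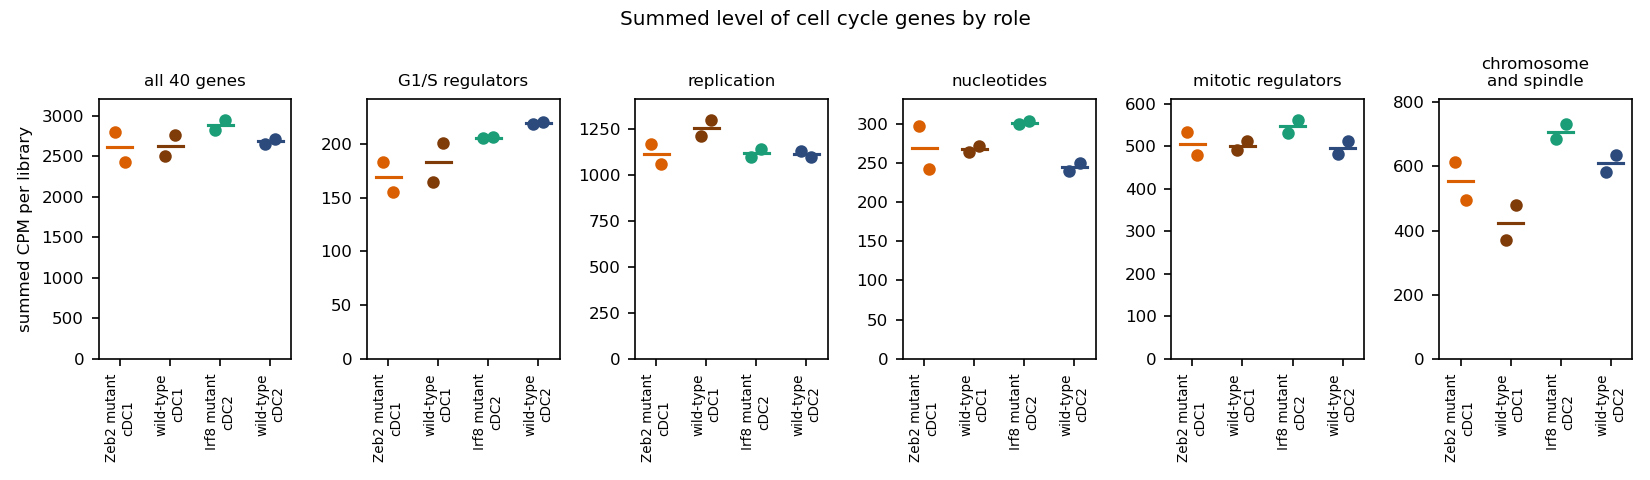
Summed CPM per library (vertical axis, from 0) of all 40 cell cycle genes and of each role class, in the 4 groups. Points are the 2 libraries of a group and lines their mean. The sum over all members overlaps between cell types, while the summed CPM of the G1/S regulators, most of which is Uhrf1, E2f1 and E2f2, is lower in all cDC1 libraries although 3 of its 6 genes were called higher.

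**Figure D2:**
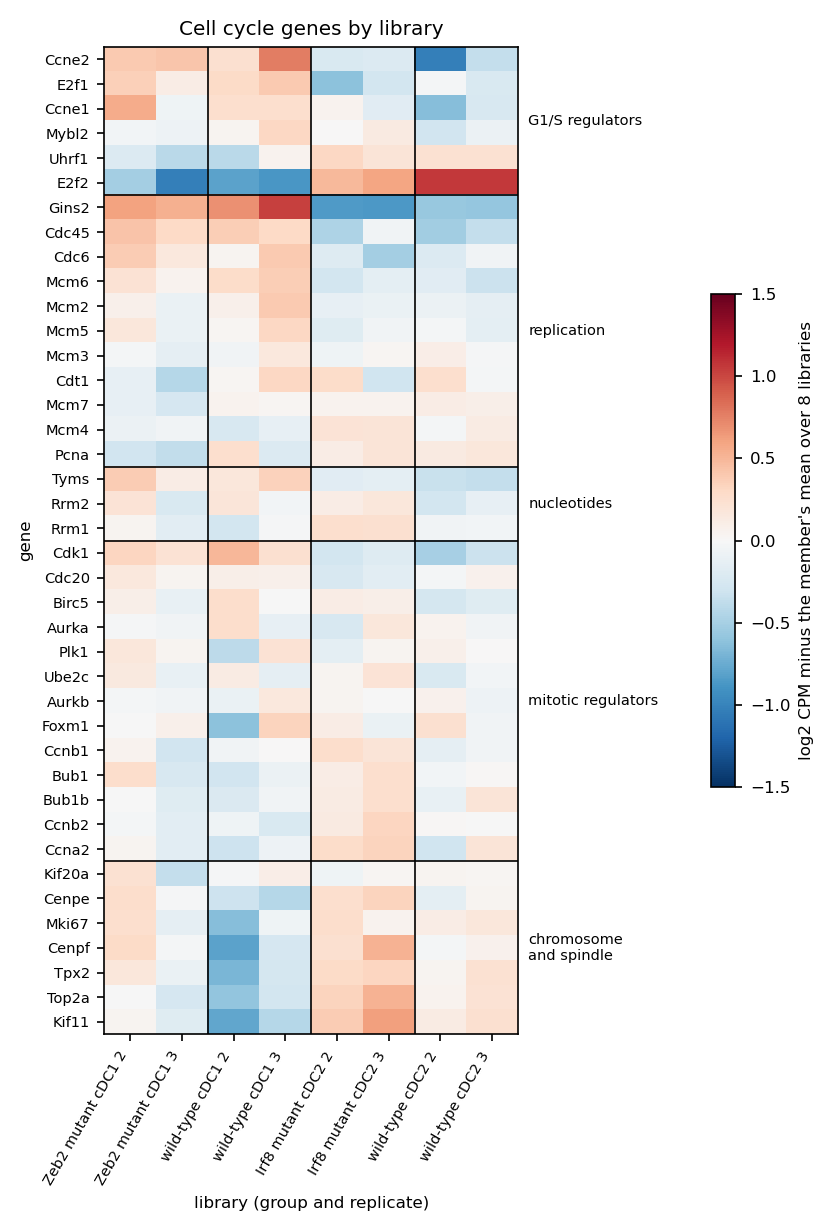
Level of each cell cycle gene (rows, by role) in each library (columns), as log2 CPM minus that gene's mean over the 8 libraries. E2f2, Top2a and Kif11 are lower, and Gins2, Ccne2, Cdc45 and Cdk1 higher, in each of the 4 cDC1 libraries than in any of the 4 cDC2 libraries.

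Promoter sequence of 5 genes is printed because these genes differed between the cell types, Mcm6 and Cdk1 in one direction and E2f2, Kif11 and Top2a in the other, so that their motifs can be read beside one another. RefSeq (GRCm38.p6) gave a promoter for 32 of the 40 members, read here as the 250 bases before the start. The windows are chr4:136172024-136172273 (plus strand) for E2f2, chr1:128359706-128359955 (minus strand) for Mcm6, chr10:69352913-69353162 (minus strand) for Cdk1, chr19:37376132-37376381 (plus strand) for Kif11 and chr11:99024190-99024439 (minus strand) for Top2a. Capitals mark matches on either strand to E2F letters (TTTCCCGC, TTTGGCGC, TTTCGCGC or TTTGCCGC), to the CHR (TTTGAA or TTCGAA), and to the CCAAT box (CCAAT).
E2f2: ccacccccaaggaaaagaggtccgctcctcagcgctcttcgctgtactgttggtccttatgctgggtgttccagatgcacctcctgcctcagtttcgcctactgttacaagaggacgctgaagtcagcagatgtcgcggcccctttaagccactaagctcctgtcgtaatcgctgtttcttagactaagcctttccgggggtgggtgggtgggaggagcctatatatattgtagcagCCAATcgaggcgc
Mcm6: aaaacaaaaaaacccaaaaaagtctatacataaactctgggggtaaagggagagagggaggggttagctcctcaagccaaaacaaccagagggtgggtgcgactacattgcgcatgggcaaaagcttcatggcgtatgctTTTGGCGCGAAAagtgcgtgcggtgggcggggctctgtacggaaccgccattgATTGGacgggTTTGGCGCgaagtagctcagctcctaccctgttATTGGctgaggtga
Cdk1: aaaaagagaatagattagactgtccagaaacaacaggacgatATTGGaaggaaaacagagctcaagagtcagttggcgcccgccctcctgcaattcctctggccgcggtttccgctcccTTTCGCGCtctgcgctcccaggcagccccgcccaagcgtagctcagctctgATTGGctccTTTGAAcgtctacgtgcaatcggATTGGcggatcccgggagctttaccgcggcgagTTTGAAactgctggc
Kif11: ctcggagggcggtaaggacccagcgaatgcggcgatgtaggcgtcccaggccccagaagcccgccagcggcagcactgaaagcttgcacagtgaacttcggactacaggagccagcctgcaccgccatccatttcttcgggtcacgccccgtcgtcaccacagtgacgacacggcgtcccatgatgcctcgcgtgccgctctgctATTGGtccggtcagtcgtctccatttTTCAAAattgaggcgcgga
Top2a: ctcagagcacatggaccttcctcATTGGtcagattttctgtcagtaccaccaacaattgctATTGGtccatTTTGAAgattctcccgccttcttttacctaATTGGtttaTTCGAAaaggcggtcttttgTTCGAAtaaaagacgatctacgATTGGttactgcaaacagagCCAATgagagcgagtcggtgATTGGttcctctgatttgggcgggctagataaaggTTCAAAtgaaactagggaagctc
The Mcm6 window held 3 E2F matches, of which 2 overlap, and the Cdk1 window held 1 E2F match, 2 CHR matches and 3 CCAAT boxes. The Top2a window held 4 CHR matches and 6 CCAAT boxes, Kif11 had 1 of each, and E2f2 had 1 CCAAT box. Among all 32 members, 5 windows held an E2F match (15.6%, against 1.86% of 32851 RefSeq promoters), 11 held a CHR match (34.4%, against 17.1%) and 25 held a CCAAT box (78.1%, against 33.8%). E2F matches lay in 4 of 9 replication genes and 1 of 10 mitotic regulators, and CHR matches in 3 of 5 chromosome and spindle genes, 5 of 10 mitotic regulators and 3 of 9 replication genes. For E2f1, Cdc6 and Mcm7 the RefSeq start lay 466, 350 and 539 bases inside the gene as annotated in the deposited tables. Their windows therefore lie within the gene there, and the E2F matches of Cdc6 and Mcm7 counted above are in such windows. For E2f2 the RefSeq start lay 120 bases before the start in the deposited tables. A match is a description of the letters and not a binding site.

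The first comparison asked how the cell cycle genes differ between cDC1 and cDC2. Over all libraries, 4 cDC1 against 4 cDC2, 9 members were higher in cDC1 and 7 were lower, by edgeR's quasi-likelihood test at an adjusted p under 0.05. Of all 20631 tested genes, 20% were called higher and 21.5% lower, so the members' counts lay near the background. The median log2 fold change of the members was -0.01 (-0.081 to 0.049 over the alternatives), and that of all tested genes was 0.00182. The groups did not overlap for 8 members that were higher and 6 that were lower, where the background was 19.6% and 20.4%. The 9 members called higher by the test were the cyclins Ccne1 and Ccne2, E2f1, the replication factors Gins2, Cdc45, Cdc6 and Mcm6, the thymidylate synthase gene Tyms, and Cdk1. The 7 called lower were E2f2, Uhrf1, Mcm4 and 4 of the 7 chromosome and spindle genes, Kif11, Top2a, Tpx2 and Cenpf.

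Among the G1/S regulators, 3 of 6 were higher in cDC1 and 2 lower, against 20% and 21.5% of all tested genes. E2f2, an activating E2F factor, stood at 18.2 and 12.7 CPM in Zeb2 mutant cDC1 and 14.8 and 14.2 CPM in WT cDC1, against 36.3 and 39.2 CPM in Irf8 mutant cDC2 and 54.2 and 54.3 CPM in WT cDC2. It was the member with the largest difference, and every cDC1 library was below every cDC2 library (log2 fold change -1.59 ± 0.13 (SE), edgeR adjusted p = 3.46e-06). E2f1, the other activating E2F factor among the members, went the opposite way. It stood at 45.1 and 37.9 CPM in Zeb2 mutant cDC1 and 43.0 and 46.2 CPM in WT cDC1, against 23.1 and 29.2 CPM in Irf8 mutant cDC2 and 34.4 and 30.2 CPM in WT cDC2 (0.57 ± 0.12, edgeR adjusted p = 0.00279). The groups did not overlap for E2f1 either. Ccne2, a cyclin E that activates CDK2, stood at 11.5 and 11.7 CPM in Zeb2 mutant cDC1 and 10.4 and 14.9 CPM in WT cDC1, against 7.47 and 7.63 CPM in Irf8 mutant cDC2 and 4.29 and 6.86 CPM in WT cDC2 (0.90 ± 0.19, edgeR adjusted p = 0.00339). On the other strand Ints8 shares 17.4% of the Ccne2 exon bases and was higher in cDC1 too (0.47, edgeR adjusted p = 0.00389), and the kit does not mark strand, so reads there cannot be told apart. Its paralog Ccne1 stood at 14 and 9.16 CPM in Zeb2 mutant cDC1 and 11.4 and 11.4 CPM in WT cDC1, against 9.88 and 8.52 CPM in Irf8 mutant cDC2 and 6.15 and 8.06 CPM in WT cDC2. Its libraries overlapped, and its call was near the threshold (0.51 ± 0.18, edgeR adjusted p = 0.0435). Uhrf1, which brings the maintenance methyltransferase to newly made DNA, stood at 78.1 and 67.9 CPM in Zeb2 mutant cDC1 and 67.9 and 93.3 CPM in WT cDC1, against 112 and 103 CPM in Irf8 mutant cDC2 and 106 and 106 CPM in WT cDC2 (-0.47 ± 0.11, edgeR adjusted p = 0.00675). Mybl2, the B-Myb factor of the MuvB complex, did not pass the test (0.12 ± 0.12, edgeR adjusted p = 0.496).

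Among the 11 replication genes, 4 were higher in cDC1 and 1 lower, against 20% and 21.5% of all tested genes. Gins2, a subunit of the GINS complex, had the largest rise of any member. It stood at 11.8 and 11.3 CPM in Zeb2 mutant cDC1 and 12.5 and 15.9 CPM in WT cDC1, against 4.31 and 4.28 CPM in Irf8 mutant cDC2 and 5.24 and 5.22 CPM in WT cDC2 (1.43 ± 0.15, edgeR adjusted p = 2.95e-05). Likewise, 67.3% of the Gins2 exon bases are shared with Gse1 on the other strand, so reads of both genes cannot be told apart. Gse1 itself was lower in cDC1 (-0.64, edgeR adjusted p = 0.00286). Cdc45, which joins MCM and GINS in the active helicase and shares 6.0% of its exon bases with Ufd1 on the other strand (0.32, edgeR adjusted p = 0.0187), stood at 32.5 and 29.7 CPM in Zeb2 mutant cDC1 and 31.2 and 29.7 CPM in WT cDC1, against 17.5 and 23.3 CPM in Irf8 mutant cDC2 and 16.7 and 18.9 CPM in WT cDC2 (0.69 ± 0.12, edgeR adjusted p = 0.00106). Every cDC1 library exceeded every cDC2 library for both genes. Cdc6, a loader of the helicase, stood at 22.6 and 19.3 CPM in Zeb2 mutant cDC1 and 17.9 and 22.7 CPM in WT cDC1, against 15.1 and 12.2 CPM in Irf8 mutant cDC2 and 15.0 and 16.7 CPM in WT cDC2 (0.49 ± 0.14, edgeR adjusted p = 0.0162).

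The 6 MCM subunits, which form 1 ring, did not move together. Mcm6 stood at 250 and 223 CPM in Zeb2 mutant cDC1 and 260.1 and 279 CPM in WT cDC1, against 177 and 195 CPM in Irf8 mutant cDC2 and 191 and 172 CPM in WT cDC2 (0.46 ± 0.09, edgeR adjusted p = 0.00211). Mcm4 went the other way, at 133 and 135 CPM in Zeb2 mutant cDC1 and 119 and 130 CPM in WT cDC1, against 163 and 161 CPM in Irf8 mutant cDC2 and 138 and 153 CPM in WT cDC2 (-0.25 ± 0.08, edgeR adjusted p = 0.0369). Mcm2, Mcm3, Mcm5 and Mcm7 did not pass the test, with log2 fold changes of 0.23 ± 0.10, -0.02 ± 0.09, 0.21 ± 0.10 and -0.15 ± 0.08. Pcna stood at 117 and 110.2 CPM in Zeb2 mutant cDC1 and 170 and 124 CPM in WT cDC1, against 154 and 162 CPM in Irf8 mutant cDC2 and 156 and 160 CPM in WT cDC2. Replicate 2 of WT cDC1 was the highest of all 8 libraries for Pcna and the other 3 cDC1 libraries were the lowest, and the difference missed the threshold (-0.29 ± 0.11, edgeR adjusted p = 0.0524). Pcna can share reads with its pseudogene Pcna-ps2, which held 4985 counts over the 8 libraries. Cdt1, the partner of Cdc6 in helicase loading, did not pass the test (-0.12 ± 0.15, edgeR adjusted p = 0.584).

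Of the 3 nucleotide genes, Tyms, the thymidylate synthase, was higher in cDC1, as were 20% of all tested genes. It stood at 36.1 and 30.1 CPM in Zeb2 mutant cDC1 and 31.2 and 35.4 CPM in WT cDC1, against 24.6 and 25.1 CPM in Irf8 mutant cDC2 and 22 and 21.7 CPM in WT cDC2, with no overlap (0.51 ± 0.11, edgeR adjusted p = 0.00316). The subunits of ribonucleotide reductase did not pass the test. Rrm2 stood at 122 and 90.3 CPM in Zeb2 mutant cDC1 and 120.0 and 103 CPM in WT cDC1, against 114 and 119 CPM in Irf8 mutant cDC2 and 87.3 and 96.6 CPM in WT cDC2 (0.07 ± 0.11, edgeR adjusted p = 0.654). Rrm1 stood at 139 and 121 CPM in Zeb2 mutant cDC1 and 112 and 133 CPM in WT cDC1, against 160.5 and 160 CPM in Irf8 mutant cDC2 and 131 and 131 CPM in WT cDC2 (-0.20 ± 0.09, edgeR adjusted p = 0.118). Libraries of both cell types overlapped for Rrm2 and Rrm1.

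Of the 13 mitotic regulators, Cdk1 alone was called, where 20% of all tested genes were called higher and 21.5% lower. Cdk1, the kinase that starts mitosis, stood at 36.5 and 33.8 CPM in Zeb2 mutant cDC1 and 41.2 and 34.4 CPM in WT cDC1, against 24.1 and 25.4 CPM in Irf8 mutant cDC2 and 20.5 and 23.3 CPM in WT cDC2 (0.65 ± 0.11, edgeR adjusted p = 0.000738). Its cyclin partners did not follow it: Ccnb1, Ccnb2 and Ccna2 had log2 fold changes of -0.13 ± 0.11, -0.24 ± 0.09 and -0.26 ± 0.12, and none passed the test. Ccna2 shares 12.5% of its exon bases with Exosc9 on the other strand. Ccnb2 stood at 52.1 and 47.4 CPM in Zeb2 mutant cDC1 and 50.8 and 45.1 CPM in WT cDC1, against 58.2 and 66.3 CPM in Irf8 mutant cDC2 and 53.8 and 52.9 CPM in WT cDC2. Every cDC1 library was below every cDC2 library for Ccnb2, yet it missed the threshold (edgeR adjusted p = 0.068). Cdc20, which activates the anaphase-promoting complex, stood at 39.9 and 36.9 CPM in Zeb2 mutant cDC1 and 38.1 and 37.7 CPM in WT cDC1, against 30.3 and 32.0 CPM in Irf8 mutant cDC2 and 35.1 and 37.3 CPM in WT cDC2 (0.18 ± 0.09, edgeR adjusted p = 0.146). The kinases Aurka, Aurkb, Plk1, Bub1 and Bub1b, the survivin gene Birc5, the ubiquitin-conjugating enzyme gene Ube2c and Foxm1 had log2 fold changes of -0.23 to 0.12.

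Among the 7 chromosome and spindle genes, 4 were lower in cDC1 and none higher, with a median log2 fold change of -0.39. Of all tested genes, 21.5% were called lower and 20% higher. Kif11, the motor that pushes spindle poles apart, stood at 83.0 and 71.2 CPM in Zeb2 mutant cDC1 and 47.1 and 59.9 CPM in WT cDC1, against 106 and 124 CPM in Irf8 mutant cDC2 and 88.1 and 95.4 CPM in WT cDC2 (-0.68 ± 0.11, edgeR adjusted p = 0.000671). Top2a, the topoisomerase that untangles sister chromatids, stood at 197 and 165 CPM in Zeb2 mutant cDC1 and 131 and 162 CPM in WT cDC1, against 247 and 283 CPM in Irf8 mutant cDC2 and 204 and 228 CPM in WT cDC2 (-0.56 ± 0.11, edgeR adjusted p = 0.00193). Every cDC1 library was below every cDC2 library for both. Tpx2, which activates Aurora A on the spindle, stood at 58.7 and 48.9 CPM in Zeb2 mutant cDC1 and 32.6 and 43.4 CPM in WT cDC1, against 63.8 and 65.4 CPM in Irf8 mutant cDC2 and 53.7 and 61.4 CPM in WT cDC2 (-0.43 ± 0.12, edgeR adjusted p = 0.0133). Cenpf, a kinetochore protein, stood at 44.7 and 35.8 CPM in Zeb2 mutant cDC1 and 21.1 and 30.8 CPM in WT cDC1, against 43.4 and 52.5 CPM in Irf8 mutant cDC2 and 35.9 and 38.5 CPM in WT cDC2 (-0.39 ± 0.14, edgeR adjusted p = 0.0487). Libraries of both cell types overlapped for Tpx2 and Cenpf. Mki67, which coats mitotic chromosomes and is widely used as a mark of dividing cells, stood at 155 and 119 CPM in Zeb2 mutant cDC1 and 83.6 and 125 CPM in WT cDC1, against 157 and 135 CPM in Irf8 mutant cDC2 and 141 and 147 CPM in WT cDC2. It did not pass the test (-0.28 ± 0.14, edgeR adjusted p = 0.137). Cenpe and Kif20a had log2 fold changes of -0.24 ± 0.11 and -0.01 ± 0.13. Of the Kif20a exon bases, 29.3% are shared with Cdc23 on the other strand, which was higher in cDC1 (0.33, edgeR adjusted p = 0.0187). Reads there cannot be told apart.

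Transcript length moved with these differences. Over 8399 genes, the log2 fold change of cDC1 over cDC2 had a Spearman correlation with exon length of -0.215, and over the 40 members of -0.286. With the trend over length removed from each library, the median of the chromosome and spindle genes was -0.13, the log2 fold change of Cenpf was -0.13 ± 0.12 (edgeR adjusted p = 0.451), and those of Kif11 and Top2a were -0.56 ± 0.10 and -0.39 ± 0.09 (edgeR adjusted p = 0.00147 and 0.0084). Pcna and Ccnb2, which have short transcripts, then passed the test with -0.45 ± 0.09 and -0.58 ± 0.09 (edgeR adjusted p = 0.00225 and 0.000518). Of the 16 called members, 11 passed in all 13 alternatives: Ccne2, Cdc45, Cdk1, E2f1, E2f2, Gins2, Kif11, Mcm6, Top2a, Tyms and Uhrf1. The calls of the other 5 each ended without at least 1 library, and those of Ccne1, Cenpf and Mcm4 also ended with the replicate block. Ccne1 was lost without replicate 2 of WT cDC1, of WT cDC2 or of Zeb2 mutant cDC1 or replicate 3 of Irf8 mutant cDC2 and also with RLE size factors or the length trend removed (highest edgeR adjusted p over its alternatives 0.225), and Cdc6 without replicate 2 of WT cDC2 or of Zeb2 mutant cDC1 (0.0708). Tpx2 was lost without replicate 3 of WT cDC2 or of Zeb2 mutant cDC1 or without either Irf8 mutant library (0.105). Cenpf was lost without replicate 2 of WT cDC1, replicate 3 of Zeb2 mutant cDC1 or any cDC2 library (0.451), and Mcm4 without any library other than those of WT cDC1 and also with no filter on low counts (0.312). The count of lower members was 4 instead of 7 without replicate 3 of Zeb2 mutant cDC1, either Irf8 mutant library or replicate 3 of WT cDC2.

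**Figure D3:**
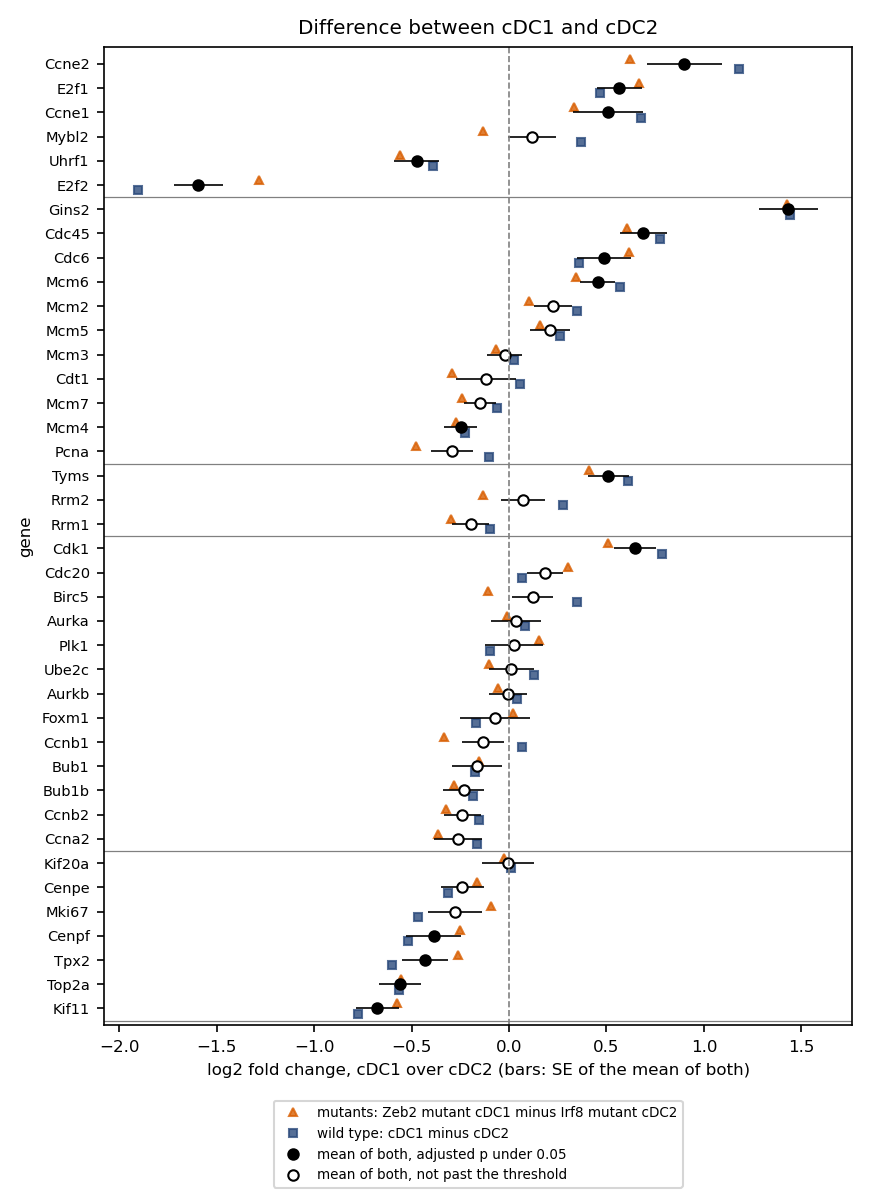
Log2 fold change of cDC1 over cDC2 (horizontal axis) for each cell cycle gene (rows, by role). Circles are the mean of both genotype classes with bars of 1 SE, filled where the adjusted p was under 0.05, triangles the mutants alone and squares wild type alone. E2f2 is furthest to the left and Gins2 furthest to the right.

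The difference between the cell types was then taken separately in mutants and in wild type, which share no library. Each mutant group carried its own genotype, so cell type and genotype cannot be told apart in the mutants. Between Zeb2 mutant cDC1 and Irf8 mutant cDC2, 5 members were higher and 5 lower (background 12.8% and 15%). Between WT cDC1 and WT cDC2, 6 members were higher and 4 lower (background 14.2% and 15.9%). Called in both were Gins2, Cdc45, Cdk1, E2f2, Kif11 and Top2a, which is 60% of the members called in each, and the sign was the same for 28 of 40 members (70%). Over all tested genes these shares were 76.6% of the genes called in mutants, 70.8% of those called in wild type, and 78% for the sign. For E2f2 the log2 fold change was -1.29 ± 0.18 in the mutants (edgeR adjusted p = 0.000369) and -1.90 ± 0.18 in wild type (edgeR adjusted p = 2.60e-05). For Gins2 it was 1.43 ± 0.22 in the mutants (edgeR adjusted p = 0.000651) and 1.44 ± 0.22 in wild type (edgeR adjusted p = 0.000564). Both genes kept their calls in all 14 alternatives of each comparison.

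The other members called in the mutants were E2f1 (0.67 ± 0.17, edgeR adjusted p = 0.012), Cdc6 (0.62 ± 0.20, edgeR adjusted p = 0.039), Uhrf1 (-0.56 ± 0.16, edgeR adjusted p = 0.0256) and Pcna (-0.48 ± 0.15, edgeR adjusted p = 0.04). Those called only in wild type were Ccne2 (1.18 ± 0.27, edgeR adjusted p = 0.00795), Mcm6 (0.57 ± 0.13, edgeR adjusted p = 0.00679), Tyms (0.61 ± 0.15, edgeR adjusted p = 0.0121) and Tpx2 (-0.60 ± 0.17, edgeR adjusted p = 0.0204). Passing the test in 1 genotype class and not in the other does not show a difference between them, and the test of that difference itself called none of the 40 members (4 genes of 20631, all negative, 0.0194%). At an unadjusted p under 0.05 it counted 1 member, E2f2, against 7.62% of all tested genes. The cell type difference of E2f2 was less negative in the mutants than in wild type, by 0.62 ± 0.25 log2 units (edgeR adjusted p = 0.612). This value is the Zeb2 effect in cDC1 minus the Irf8 effect in cDC2, which were 0.09 ± 0.18 and -0.52 ± 0.18. With 2 libraries a group, most of these calls did not hold without single libraries. In the mutants, Cdc45, Cdc6, Cdk1, E2f1, Pcna and Uhrf1 lost their calls without replicate 2 of Zeb2 mutant cDC1, and Cdc45, Cdc6, Cdk1, Kif11, Pcna, Top2a and Uhrf1 without replicate 3. Without replicate 2 of Irf8 mutant cDC2 the calls of Cdc45, Cdk1, E2f1, Kif11, Pcna, Top2a and Uhrf1 ended, and without replicate 3 those of Cdc6, Cdk1, Kif11, Pcna, Top2a and Uhrf1. Kif11, Pcna, Top2a and Uhrf1 also lost theirs without either WT cDC2 library. Such a library is not in the groups compared, but it enters the gene filter, the scaling factors, the shared estimate of spread and the adjustment. All of these were repeated each time a library was left out. In wild type, Cdk1, E2f2, Gins2 and Kif11 passed without any 1 library, and the other 6 each lost their call without a library of WT cDC2, replicate 2 for Ccne2 and Cdc45, replicate 3 for Mcm6 and each of them for Top2a, Tpx2 and Tyms (highest edgeR adjusted p 0.0662 to 0.186). Top2a and Tpx2 also lost theirs without replicate 2 of WT cDC1, and 8 members instead of 4 were lower without replicate 3 of WT cDC1.

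**Figure D4:**
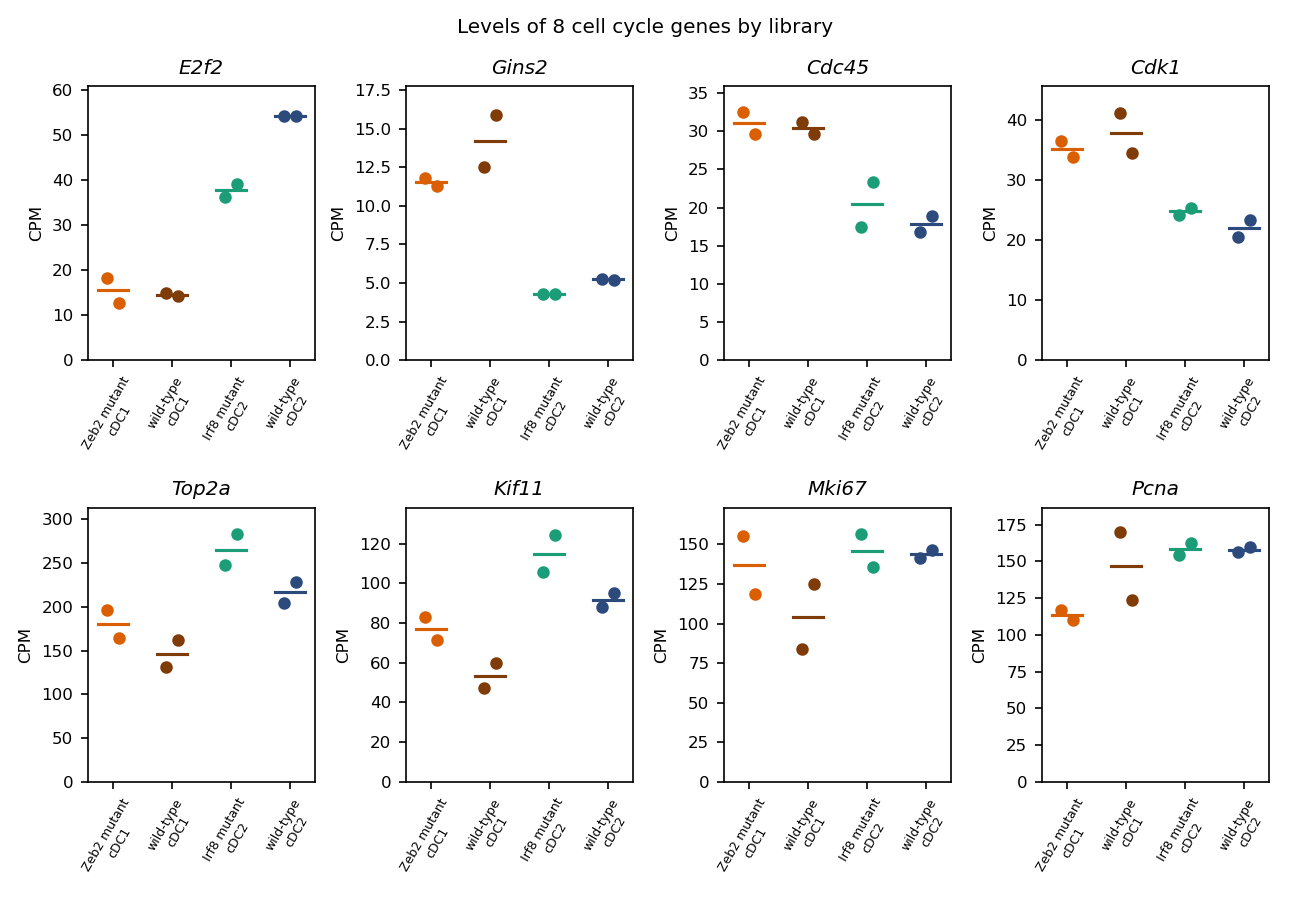
CPM per library (vertical axes, from 0) of the 6 members called in both genotype classes, and of Mki67 and Pcna. Points are the 2 libraries of a group and lines their mean. The 4 cDC1 libraries lie below the 4 cDC2 libraries for E2f2, Top2a and Kif11 and above them for Gins2, Cdc45 and Cdk1.

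The next comparison asked what the Zeb2 genotype changes in cDC1. None of the 40 members was called between Zeb2 mutant and WT cDC1 by edgeR or by DESeq2. Among all genes edgeR called 0.0145% higher and 0.0533% lower, 14 genes in all. At an unadjusted p under 0.05, 5 members differed, against 10.5% of all tested genes. They were Cenpf (0.63 ± 0.20), Kif11 (0.53 ± 0.16), Tpx2 (0.50 ± 0.17), Cenpe (0.50 ± 0.15) and, in the other direction, Pcna (-0.37 ± 0.15), with edgeR adjusted p of 0.311 to 0.433. The 4 with positive values are chromosome and spindle genes. That class had a median log2 fold change of 0.50, against -0.03 for all tested genes, and both Zeb2 mutant libraries lay above both WT libraries for 5 of its 7 genes, where the background was 19.2%. The class median was 0.32 without replicate 2 of WT cDC1 and 0.33 with the length trend removed. The replication genes had a median of -0.19, which was -0.05 without replicate 3 of WT cDC1 and -0.11 without replicate 3 of Zeb2 mutant cDC1, and both Zeb2 mutant libraries lay below both WT libraries for 5 of 11 (background 19.8%).

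These differences moved with the length trend and with 1 library. Over 8399 genes the log2 fold change of Zeb2 mutant over WT cDC1 had a Spearman correlation with exon length of 0.481, and over the members of 0.358. Among the 5 members with the longest exons, replicate 2 of WT cDC1 was below replicate 3 for Cenpf (21.1 and 30.8 CPM), Rrm1 (112 and 133 CPM), Mki67 (83.6 and 125 CPM) and Top2a (131 and 162 CPM), and above it for Cenpe (26.7 and 24.7 CPM). Without replicate 3 of WT cDC1, edgeR called Cenpf, Kif11, Mki67 and Tpx2 higher and Pcna lower (smallest edgeR adjusted p over the alternatives 0.0155 to 0.0297), and 1078 genes in all. Without replicate 2 of WT cDC1 it called no member. With the length trend removed, Cenpf, Kif11 and Cenpe had log2 fold changes of 0.40 ± 0.17, 0.39 ± 0.14 and 0.33 ± 0.15. Neutrophil marker genes were also higher in the Zeb2 mutant libraries, where all 7 had positive log2 fold changes and none was called. Their summed level averaged 117 ± 28.2 CPM in Zeb2 mutant cDC1 and 7.79 ± 9.68 CPM in WT cDC1, and that of erythroid markers, also all positive and none called, 51.1 ± 1.99 and 43.1 ± 1.89 CPM (SD, n = 2 each). T cell markers, 6 of 6 with positive values and none called, summed to 85.5 and 78.5 CPM in Zeb2 mutant cDC1, against 67.8 and 61.4 CPM in WT cDC1. Early progenitor markers summed to 777 and 778 CPM in Zeb2 mutant cDC1, against 533 and 738 CPM in WT cDC1, with 3 of 6 genes above 0. Their part in these values was not tested.

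The last comparison asked what the Irf8 genotype changes in cDC2. No member was called between Irf8 mutant and WT cDC2, and edgeR called 0 of 20631 genes (0%). At an unadjusted p under 0.05 edgeR counted 1313 genes (6.36%), and DESeq2 called 151 genes and no member. The 2 members under an unadjusted p of 0.05 were E2f2, at -0.52 ± 0.18 (edgeR adjusted p = 0.649), and Cenpe, at 0.34 ± 0.15 (edgeR adjusted p = 0.779). E2f2 was the only G1/S regulator besides E2f1 with a negative value, and its Irf8 mutant libraries at 36.3 and 39.2 CPM were below its WT libraries at 54.2 and 54.3 CPM. Most members had small positive values. The log2 fold change was above 0 for 26 of 40, with a median of 0.15 against 0.01 for all tested genes, and this median ranged over the alternatives from 0.06, without replicate 2 of WT cDC2, to 0.18. Both Irf8 mutant libraries lay above both WT libraries for 19 members and below them for 5, where the background was 19.6% and 19.7%. The medians were 0.29 for chromosome and spindle genes, 0.29 for nucleotide genes, 0.17 for mitotic regulators, and -0.03 for replication genes (-0.085 to 0.004 over the alternatives). Without replicate 2 of WT cDC2 the medians of spindle genes and mitotic regulators were 0.19 and 0.06, and without replicate 3 of Irf8 mutant cDC2 they were 0.17 and 0.10.

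Markers of some other cells also had a higher summed CPM in the Irf8 mutant libraries. The summed level of neutrophil markers averaged 91.3 ± 48.4 CPM in Irf8 mutant cDC2 and 15.3 ± 19.3 CPM in WT cDC2, and that of erythroid markers 86.7 ± 22.8 and 62.5 ± 6.84 CPM (SD, n = 2 each). Per kilobase of exon the erythroid sum was 87.4 and 15.1 in Irf8 mutant cDC2, against 18.1 and 23.4 in WT cDC2. It was thus higher in replicate 2 of the mutant only, and the groups overlapped for all 7 erythroid genes. The early progenitor sums overlapped, at 1194 and 1113 CPM in Irf8 mutant cDC2 and 1151 and 1036 CPM in WT cDC2, with a median log2 fold change of -0.17 and 4 of 6 genes below 0. No gene of these lists was called, and their part in the members' values was not tested.

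**Figure D5:**
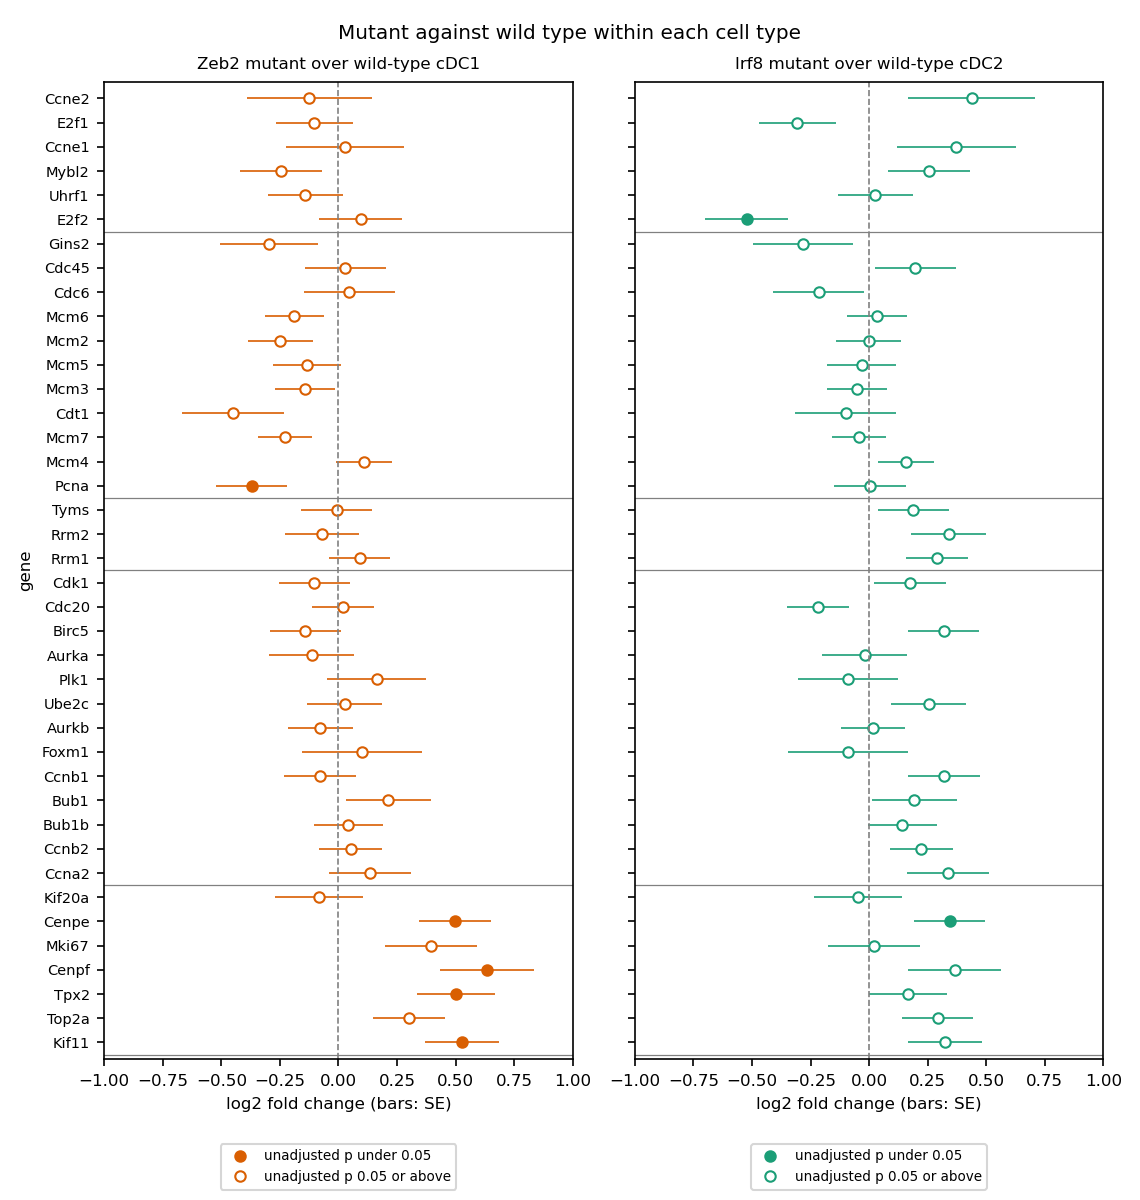
Log2 fold change of mutant over wild type (horizontal axes, bars of 1 SE) for each cell cycle gene (rows, by role), in cDC1 for the Zeb2 genotype (left) and in cDC2 for the Irf8 genotype (right). Filled points have an unadjusted p under 0.05, and no gene passed the adjusted threshold in either panel.

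Other genes of the pathway were read from lists that the members are not part of, in the comparison of 4 cDC1 with 4 cDC2 libraries, in which 20% of all tested genes were called higher and 21.5% lower. Of 35 further replication genes, 11 were higher in cDC1 and 7 lower, with a median log2 fold change of 0.22. Hells, a chromatin remodeller, stood at 73.1 and 56.0 CPM in Zeb2 mutant cDC1 and 69.3 and 64.6 CPM in WT cDC1, against 15.8 and 15.9 CPM in Irf8 mutant cDC2 and 11.9 and 13.7 CPM in WT cDC2 (2.21 ± 0.12, edgeR adjusted p = 1.75e-07). Dut, the dUTPase, was higher as well (1.02 ± 0.13, edgeR adjusted p = 0.000141). Gins3, a partner of Gins2 in the GINS complex, went against it, at 4.11 and 5.26 CPM in Zeb2 mutant cDC1 and 7.02 and 4.07 CPM in WT cDC1, against 20.4 and 14.9 CPM in Irf8 mutant cDC2 and 14.2 and 14.6 CPM in WT cDC2 (-1.65 ± 0.20, edgeR adjusted p = 9.04e-05). Pola1, the catalytic subunit of DNA polymerase alpha, was lower too (-0.87 ± 0.11, edgeR adjusted p = 0.000101).

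Of 43 further mitosis genes, 4 were higher in cDC1 and 17 lower, against the background of 20% and 21.5%. Their median was -0.23, and -0.10 without replicate 3 of Irf8 mutant cDC2. Cks1b, a subunit that binds CDKs, was higher, at 77.2 and 78.1 CPM in Zeb2 mutant cDC1 and 86.3 and 79.6 CPM in WT cDC1, against 36.0 and 39.2 CPM in Irf8 mutant cDC2 and 31.9 and 34.7 CPM in WT cDC2 (1.18 ± 0.09, edgeR adjusted p = 2.48e-06). Cenpa, the centromeric histone H3 variant, was lower (-1.05 ± 0.12, edgeR adjusted p = 5.60e-05), as were the microtubule depolymerase Kif2c (-0.78 ± 0.12, edgeR adjusted p = 0.000324) and the condensin subunit Ncapd2 (-0.57 ± 0.09, edgeR adjusted p = 0.000516). The groups did not overlap for any of these 4 genes.

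Upstream of S phase, 2 of 10 G1 cyclins, CDKs and related genes were higher in cDC1 and 6 lower (background 20% and 21.5%). Ccnd2, a cyclin D, was lower (-2.61 ± 0.15, edgeR adjusted p = 3.61e-07), as were Ccnd1 (-1.58 ± 0.14, edgeR adjusted p = 6.09e-06) and Myc, a transcription factor gene of growing cells (-1.58 ± 0.20, edgeR adjusted p = 9.14e-05). Cdc25a, a phosphatase that activates CDKs, went the other way, at 58.6 and 57.3 CPM in Zeb2 mutant cDC1 and 51.4 and 64.8 CPM in WT cDC1, against 17.3 and 18.6 CPM in Irf8 mutant cDC2 and 18.7 and 17.3 CPM in WT cDC2 (1.69 ± 0.11, edgeR adjusted p = 6.82e-07). Of 7 CDK inhibitors, 4 were lower in cDC1 and none higher (background 21.5% and 20%). Cdkn1a, which encodes p21, stood at 33.4 and 23.8 CPM in Zeb2 mutant cDC1 and 46.3 and 34.1 CPM in WT cDC1, against 328 and 243 CPM in Irf8 mutant cDC2 and 248 and 251 CPM in WT cDC2 (-2.98 ± 0.16, edgeR adjusted p = 1.59e-07). Cdkn2d (-1.11 ± 0.11, edgeR adjusted p = 1.88e-05), Cdkn2c (-0.62 ± 0.11, edgeR adjusted p = 0.00127) and Cdkn2b (-1.08 ± 0.28, edgeR adjusted p = 0.0114) were the others, and the call of Cdkn2b ended without replicate 3 of Zeb2 mutant cDC1 or of Irf8 mutant cDC2 (highest edgeR adjusted p 0.0609).

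Of 15 pocket protein, MuvB and further E2F genes, 4 were higher in cDC1 and 3 lower, near the background of 20% and 21.5%. The MuvB subunit Lin54 (-1.46 ± 0.10, edgeR adjusted p = 7.84e-07) and the pocket protein genes Rb1 (-1.08 ± 0.13, edgeR adjusted p = 5.41e-05) and Rbl2 (-0.78 ± 0.10, edgeR adjusted p = 9.16e-05) were lower, and E2f5, an E2F that acts as a repressor with pocket proteins, was higher (1.02 ± 0.18, edgeR adjusted p = 0.000973). Of 11 genes known to restrain proliferation, 5 were lower in cDC1 and none higher (background 21.5% and 20%). They included Foxo3 (-2.27 ± 0.17, edgeR adjusted p = 1.91e-06), Pdcd4 (-1.46 ± 0.13, edgeR adjusted p = 8.48e-06), Tob2 (-1.35 ± 0.10, edgeR adjusted p = 1.82e-06) and Btg2 (-0.72 ± 0.12, edgeR adjusted p = 0.000656). No gene of these 6 lists was called in either comparison of mutant with wild type.

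Markers of other cells also differed between the cell types, where 20% of all tested genes were called higher in cDC1 and 21.5% lower. The summed level of early progenitor markers was 533 to 778 CPM in the cDC1 libraries and 1036 to 1194 CPM in the cDC2 libraries, with 2 of 6 genes higher and 3 lower. In a library the lowest gene of this list held 10 to 62 counts, against 30839 to 63273 for the list as a whole. That sum therefore does not stand for every gene of the list. Monocyte or macrophage markers summed to 117 to 158 CPM in cDC1 and 371 to 531 CPM in cDC2, with 2 of 7 higher and 5 lower. For erythroid markers the sum was 41.7 to 52.6 CPM in cDC1 and 57.6 to 103 CPM in cDC2, with 1 of 7 lower. Per kilobase of exon the erythroid sums overlapped, at 11.6 to 21.6 in cDC1 and 15.1 to 87.4 CPM per kilobase in cDC2. Neutrophil markers ranged from 0.941 to 137 CPM in cDC1 and from 1.64 to 126 CPM in cDC2, and S100a9 and Ngp were at 0 in some library. NK cell markers ran the other way, at 19.5 to 30.5 CPM in cDC1 and 10.8 to 15.8 CPM in cDC2, with 3 of 6 higher and none lower. Markers of plasmacytoid dendritic cells summed to 110.1 to 122 CPM in cDC1 and 176 to 224 CPM in cDC2, with 2 of 6 higher and 3 lower. T cell markers summed to 61.4 to 85.5 CPM in cDC1 and 55.8 to 71.5 CPM in cDC2, with 2 of 6 higher, and plasma cell markers to 228 to 304 CPM in cDC1 and 215 to 286 CPM in cDC2. B cell markers summed to 25.1 to 39.0 CPM in cDC1 and 20.5 to 31.7 CPM in cDC2. Their part in the differences of the cell cycle genes was not tested.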

How the data were processed

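The deposited tables, 1 per library, hold whole-number counts of reads per gene and CPM, per the file headers. The authors' CPM was recomputed from the counts and matched. Upstream tools named are bcl2fastq, STAR, featureCounts of Subread and Salmon, on GRCm38, per the submitters' processing notes, with no statement of strand or multi-mapping settings. Cells (100000 per sample) gave 10 ng of RNA for the SMARTer Ultra Low kit, per the labels' protocols, and reads were paired, 150 bases long.

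Symbols came from GENCODE M21. The model was edgeR 4.0.16 under R 4.3.3, on counts: filterByExpr by group (20631 of 55487 genes kept), TMM, and a robust quasi-likelihood model with 1 coefficient per group over all 8 libraries (4 residual degrees of freedom, common biological coefficient of variation 0.286). There were 6 comparisons, with Benjamini-Hochberg adjustment over all tested genes. Log2 fold changes are given ± SE, the first group over the second. The SE was derived from the F statistic of the quasi-likelihood test, as the absolute log2 fold change divided by the square root of F. The fit was tested on simulated data.

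Members and lists were chosen with earlier results of these data known. Named genes were members called in any comparison, the 2 highest and the lowest of each role class per kilobase, and up to 4 called genes of each other list by smallest adjusted p. Alternatives were DESeq2 1.42.0, RLE size factors, no filter on low counts, a replicate block, the length trend removed, only the groups compared, and leaving out each library. Levels were also summed from the deposited CPM. Floors and intervals from counts cover counting error only.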

Additional observations from a re-analysis of the deposited data

How the results depend on the processing

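The alternative fits gave 488 values for the 36 calls of members. No value changed sign, and 409 of them kept the call. Each fit was read for many genes, so these values are not separate checks. Among named members that had not passed the test between cDC1 and cDC2, Rrm2, Rrm1 and Cdc20 changed sign with the length trend removed (-0.042, 0.018 and -0.068), and Rrm2 ranged from -0.041 to 0.175 when 1 library was left out, negative without replicate 2 of Zeb2 mutant cDC1. Genes called between Zeb2 mutant and WT cDC1 numbered 14, but 305 with DESeq2, 477 with no filter on low counts (with 1 member, Cenpf, higher) and 2 with only the groups compared. Between Irf8 mutant and WT cDC2 they numbered 0, but 151 with DESeq2, 199 with no filter, 7 with RLE size factors, 2 with the length trend removed and 6 with only the groups compared. For the difference between the cell type differences they numbered 4, but 162 with DESeq2 and 306 with no filter. The cause was not tested.

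Leaving out 1 library at a time gave 3812 to 6805 called genes between WT cDC1 and WT cDC2, with 3 to 7 members higher and 2 to 8 lower. Between Zeb2 mutant and WT cDC1 it gave 6 to 1078 genes (0 to 4 members higher, 0 to 1 lower), between Irf8 mutant and WT cDC2 0 to 28 genes, and for the difference of differences 0 to 705. Between Zeb2 mutant cDC1 and Irf8 mutant cDC2 it gave 3838 to 6820 genes, with 1 to 8 members higher and 1 to 5 lower, and over both genotype classes 7 to 10 were higher and 4 to 10 lower.

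The labels do not say whether libraries with the same replicate number share an animal or a batch. Over all tested genes, the differences of replicate 2 minus replicate 3 correlated between groups by -0.0262 to 0.00447. Many of these genes have low counts, so the correlations cannot show whether the libraries are paired. With the replicate block, 8 members were higher and 5 lower between cDC1 and cDC2 over both genotype classes, instead of 9 and 7, and Ccne1, Cenpf and Mcm4 lost their calls. Under it, 3 members were higher between Zeb2 mutant cDC1 and Irf8 mutant cDC2 instead of 5, and the difference of differences had 1 called gene instead of 4. With 2 libraries a group, small changes in members could not be detected.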
